A study of Eriocheir sinensis with 9 samples.

Results

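In the Chinese mitten crab, Eriocheir sinensis, 200 abundant RNA isoforms of the eyestalk differed strongly between libraries of the same temperature, and did so at each of the 3 temperatures sequenced. They were chosen by their spread between replicates. Of 267789 numbered isoforms in the table, 6460 averaged at least 20 FPKM over the 9 libraries. FPKM is the number of fragments from a transcript, scaled by the transcript's length and by the number of mapped fragments of the library. The 100 most abundant were left out, which left 6360. For each of these the SD of log2(FPKM + 1) was taken within the 3 libraries of each temperature, and the 200 isoforms whose smallest SD of the 3 was highest were kept, 3.14% of the 6360. The spread within temperatures is therefore what selected them, and the values that follow on spread, on listing at 0 and on levels of single libraries describe the selection and are not tests of it.

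The libraries come from crabs between molts, labelled wild type, acclimated at 25 °C and assigned to 6 temperatures from 7 to 32 °C, with 3 parallel replicates of 16 crabs each, and 22, 27 and 32 °C are analysed here with 3 libraries per temperature. The labels call every library untreated, so the temperature was read from the library titles, and they give neither the length of exposure nor the number of crabs behind a library. Replicates may be single crabs, pools or repeated preparations, and the p-values measure only the spread between these libraries. The sample labels name eyestalk and the DNBSEQ platform, while the series' design text names muscle and Illumina instruments. No isoform carries a name, and 0 identifiers matched the gene table used here, so the labelled tissue could not be checked against marker genes.

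The crustacean eyestalk combines a compound eye with optic ganglia and with the X-organ and sinus gland complex, which stores and releases peptide hormones acting on molting, blood sugar, reproduction and pigment. A gene can give rise to several isoforms through alternative splicing, alternative promoters and alternative ends, and the alleles of an animal can differ in which isoform they make. Programs such as RSEM assign each read in proportion to the isoforms it could come from, so closely similar isoforms share reads. In whole-tissue RNA, fewer cells of a type and less RNA per cell cannot be told apart.

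The FPKM of a library summed to between 1704920 and 2227270. The read totals are not known. Estimates of relative depth from the values of low isoforms were at most 1.16-fold for any pair of libraries. These estimates conflict with each other. Replicate 1 at 27 °C was put 1.01-fold from replicate 1 at 22 °C and also 1.01-fold from replicate 1 at 32 °C. Replicate 1 at 22 °C and replicate 1 at 32 °C were nevertheless put 1.13-fold apart. Near-equal depth is therefore not shown. Among the 6160 eligible isoforms that are not members, library profiles of the same temperature correlated at a mean of 0.762, and those of different temperatures at 0.662, over isoforms and not over independent samples. Replicate 1 at 32 °C stood apart from its own temperature. Its mean correlation was 0.680 with the other 32 °C libraries and 0.725 with the 27 °C libraries. Without that library in the choice, 136 of the 200 members were still chosen.

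The smallest SD of the 200 members had a median of 1.96 on the log2 scale, against 0.19 over all 6360 eligible isoforms. It ran from 4.93 for the highest-ranked member to 1.29 for the last, and 1 SD of the last member corresponds to a 2.44-fold difference. The 3 members just inside the limit had smallest SDs of 1.288, 1.288 and 1.285, and the 3 isoforms just outside had 1.282, 1.280 and 1.277. Members and other isoforms thus met without a gap. The last member, rank 200, measured 97.4, 353.59 and 62.95 FPKM in the 22 °C libraries, 0, 0.87 and 141.93 in the 27 °C libraries and 62.71, 54.65 and 0 in the 32 °C libraries. The first isoform outside measured 6.83, 26.37 and 95.33 FPKM, then 60.84, 68.07 and 10.91, then 44.07, 9.16 and 8.25, in the same order. Most eligible isoforms did not reach this spread at any temperature. Of the 6360, 4837 stayed below the SD of the last member at every temperature. It was reached at 1 temperature by 772, at 2 by 551 and at all 3 by 200. The rule fixes the count of 200, since the threshold is that SD. Of the 100 most abundant isoforms that had been left out, 1 reached it at all 3 temperatures, with a smallest SD of 1.37.

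The members averaged between 20.1 and 2186 FPKM over the 9 libraries, with a median of 33.0 and quartiles of 26.1 and 54.5. The eligible isoforms as a whole had a median of 39.8 and quartiles of 26.6 and 89.3. Of the members, 79 averaged under 30 FPKM and 19 averaged 100 FPKM or more, and 8 reached 1000 FPKM in at least 1 library.

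**Figure D1:**
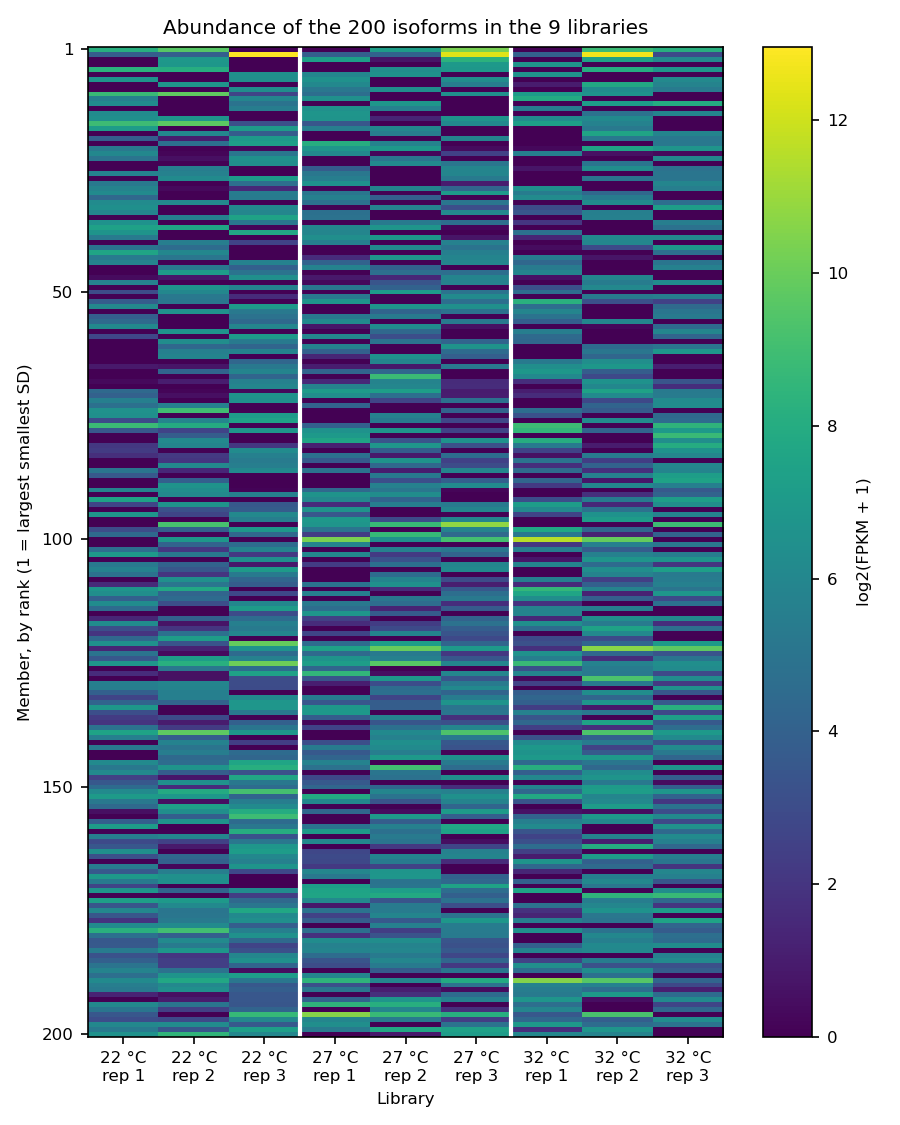
Abundance of the 200 isoforms (rows, by rank) in the 9 libraries (columns, grouped by temperature) as log2(FPKM + 1), with the colour scale beside it. Dark and light cells alternate along each row within every temperature, and no column is dark or light throughout.

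Since the isoforms have no names, most are given here by their rank, from 1 for the largest smallest SD to 200. The first-ranked isoform measured 282.25, 779.16 and 0 FPKM in the 22 °C libraries, 0, 145.66 and 1291.88 in the 27 °C libraries and 0, 461.8 and 291.18 in the 32 °C libraries, with replicates 1, 2 and 3 in that order here and throughout. At each temperature 1 library listed it at 0 and both others held more than 145 FPKM. The fifth-ranked isoform was listed at 0 in the same 3 libraries and stood at 325.85, 265.8, 83.62, 116.4, 255.1 and 105.62 FPKM in the other 6, in the same order of libraries.

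The second-ranked isoform was the most abundant member, with a mean of 2186 FPKM. It measured 12.99, 14.06 and 7968.17 FPKM in the 22 °C libraries, 13.94, 17.26 and 5165.22 in the 27 °C libraries and 15.44, 6458.52 and 6.48 in the 32 °C libraries. It was present in every library, at 2 separate levels: the lowest of its 3 high values was 299 times the highest of its 6 low values. The 3 high libraries, replicate 3 at 22 °C, replicate 3 at 27 °C and replicate 2 at 32 °C, come 1 from each temperature.

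The third-ranked isoform measured 0, 121.16 and 0 FPKM in the 22 °C libraries, 160.77, 0.69 and 325.23 in the 27 °C libraries and 0.01, 168.3 and 67.32 in the 32 °C libraries. The fourth-ranked isoform was above 0 in 3 libraries, with 114.78 FPKM in replicate 2 at 22 °C, 125.57 in replicate 3 at 27 °C and 101.52 in replicate 1 at 32 °C. It was listed at 0 in the other 6, the most for any member, a number that 2 members reached. Its values above 0 thus lay close together across the 3 temperatures.

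The sixth-ranked isoform stood at 87.13 FPKM in replicate 3 at 22 °C, at 60.78 and 97.48 FPKM in replicates 1 and 2 at 27 °C and at 92 FPKM in replicate 1 at 32 °C. It was listed at 0 in the other 5 libraries, so its levels too were all or nothing.

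**Figure D2:**
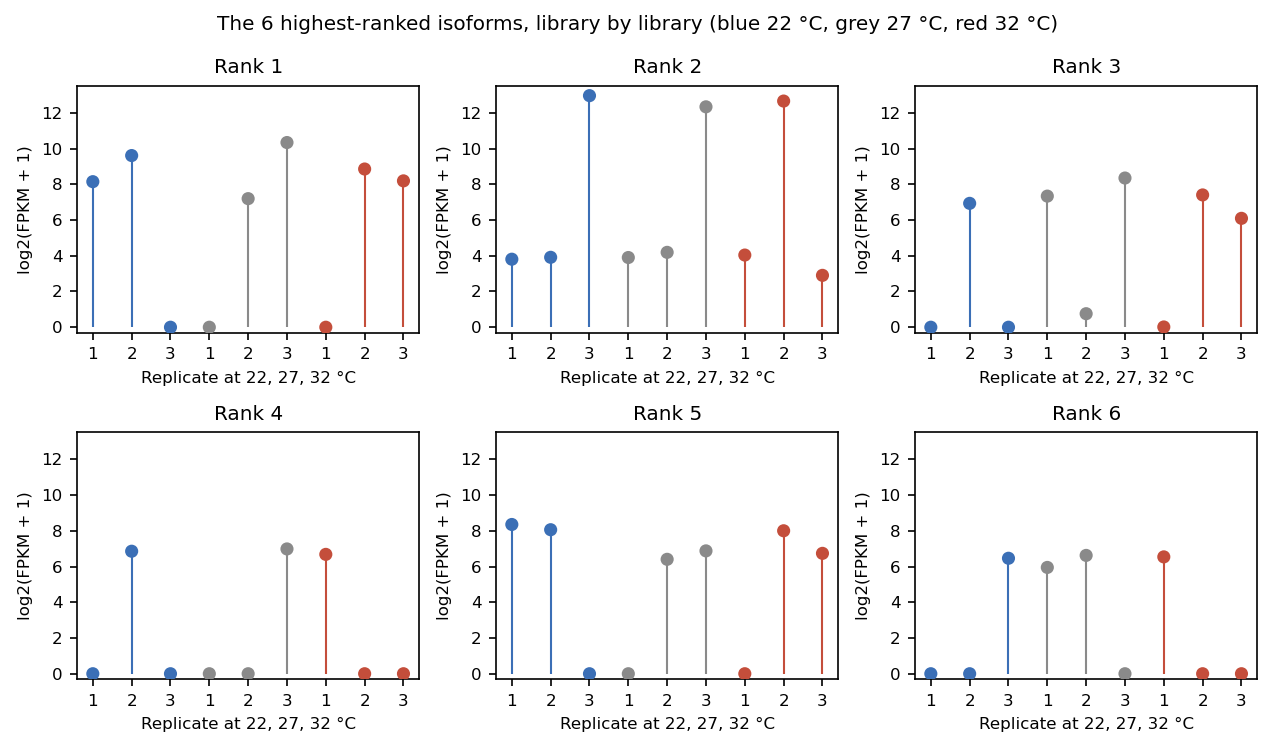
log2(FPKM + 1) of the isoforms of ranks 1 to 6 in each library, with replicates 1 to 3 of each temperature from left to right (blue 22 °C, grey 27 °C, red 32 °C), and 1 point per library. Each isoform has high and low libraries at every temperature, and rank 2 is the only one of the 6 above 0 in all 9.

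Listing at 0 was frequent among the members. At least 1 library listed 157 of the 200 (78.5%) at 0, against 842 of the 6360 eligible isoforms (13.2%). A 0 occurred at all 3 temperatures in 58 members, at 2 temperatures in 59 and at 1 in 40, and 43 members were above 0 in every library. Whether a 0 stands for an absent transcript or for an estimate that failed was not tested. Between 39 and 55 members were at 0 per library. The mean number was 45.3 ± 6.51 in the 22 °C libraries, 48.3 ± 5.86 in those of 27 °C and 47.7 ± 5.03 in those of 32 °C (SD, n = 3 per temperature). These means differ by less than the spread within any temperature.

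To compare the members with each other, a library was called high for an isoform when its log2(FPKM + 1) lay above the midpoint of the lowest and the highest of its temperature. By this definition 1 or 2 of the 3 libraries are high at each temperature. In 162 members every high library lay above every low library across all 9, whatever the temperature. The gap between the lowest high and the highest low library was at least 4-fold in 99 members and at least 10-fold in 60, with low values under 1 FPKM counted as 1. In 60 members all low libraries were under 1 FPKM, and in 47 all were at 0.

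The high values themselves were mostly not of 1 level. The highest of an isoform's high libraries was a median of 5.39 times the lowest of them. In 15 members the high libraries lay within 2-fold of each other. In 4 of these, ranks 4, 6, 7 and 26, all low libraries were also under 1 FPKM, and in fact at 0. The isoform of rank 7 stood at 101.72, 84.73, 92.89, 81.51 and 67.12 FPKM in its 5 high libraries. That of rank 26 stood at 53.56 and 51.25 FPKM in replicates 1 and 2 at 22 °C, at 34.52 and 57.75 FPKM in replicates 1 and 3 at 27 °C and at 31.74 FPKM in replicate 3 at 32 °C.

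The members did not follow a single division of the libraries. They used 109 different patterns over the 9 libraries, 57 of which held 1 member each, and the most frequent pattern held 6 members. Since 1 or 2 of the 3 libraries are high at each temperature by definition, the number of possible patterns is limited. Unrelated isoforms would also spread over many patterns and share some. Whether the numbers found differ from those of unrelated isoforms was not tested. Patterns with 4 or more members numbered 11. A count of 3 high libraries was found in 15 members, 4 in 50, 5 in 87 and 6 in 48. The number of members high in a library ran from 90 in replicate 1 at 32 °C to 124 in replicate 3 at 22 °C. At 22 °C, 45 members were high in replicate 3 alone, 24 in replicate 2 alone and 11 in replicate 1 alone. At 27 °C these numbers were 21, 32 and 17, and at 32 °C 31, 27 and 24. By replicate number, 31 members were high in replicate 1 of every temperature, 27 in replicate 2 and 29 in replicate 3. Whether these counts differ from those that unrelated replicate numbers would give was not tested.

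The most frequent pattern was high in replicates 1 and 3 at 22 °C, replicates 1 and 3 at 27 °C and replicates 1 and 2 at 32 °C, and was held by ranks 30, 34, 56, 114, 135 and 145. The isoform of rank 30 measured 72.67, 0 and 43.09 FPKM in the 22 °C libraries, 33.58, 0 and 119.43 in the 27 °C libraries and 41.79, 19.5 and 0 in the 32 °C libraries. The isoform of rank 34 measured 57.2, 0 and 61.85 FPKM in the 22 °C libraries, 26.42, 0 and 65.36 in the 27 °C libraries and 10.6, 48 and 0 in the 32 °C libraries. Both were at 0 in the same 3 libraries, as was rank 56, whose other values ran from 14.11 to 72.63 FPKM. In ranks 114, 135 and 145 the low libraries were not all at 0, reaching 1.45, 5.97 and 23.82 FPKM.

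Correlations between libraries over the 200 members were near 0. The large spread that chose the members lowers them, also between temperatures, so they are a description. The mean was -0.09 over the 9 pairs of the same temperature, which the choice of members lowers, and 0.04 over the 27 pairs of different temperatures. The range over all 36 pairs ran from -0.29, for replicates 2 and 3 at 22 °C, to 0.24, for replicate 2 at 22 °C with replicate 3 at 27 °C. Over the 6160 eligible isoforms that are not members, single pairs ran from 0.558 to 0.826. Leaving the members out raises these values. Over all 6360 eligible isoforms the mean was 0.721 within temperatures and 0.635 between them.

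Within the patterns, some members kept a nearly fixed ratio in the libraries where both were high. Ranks 47 and 133 shared the 3 high libraries of the second-ranked isoform. Rank 47 stood at 85.9, 56.51 and 58.49 FPKM in them and at most at 1.76 FPKM elsewhere. Rank 133 stood at 112.04, 104.62 and 107.07 FPKM in them and between 10.61 and 16.8 FPKM elsewhere. The ratio of rank 2 to rank 47 lay between 91.4 and 110 in the 3 high libraries, and that of rank 2 to rank 133 between 49.4 and 71.1. These ratios did not hold in the low libraries, where rank 2 stood between 6.48 and 17.26 FPKM, near the level of rank 133. The fourth member of this pattern, rank 192, did not keep to 2 levels across temperatures, with 10.56 FPKM in its high library at 22 °C and 39.24 FPKM in a low library at 32 °C.

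Ranks 37 and 90 formed a second such pair. Rank 37 measured 168.73, 193.25 and 0.12 FPKM in the 22 °C libraries, 60.97, 108.91 and 0.18 in the 27 °C libraries and 0, 0 and 27.93 in the 32 °C libraries. Rank 90 measured 54.92, 79.54 and 0.11 FPKM in the 22 °C libraries, 20.68, 34.53 and 0.15 in the 27 °C libraries and 0, 0 and 11.13 in the 32 °C libraries. Their ratio stayed between 2.43 and 3.15 in the 5 high libraries. Of all 148 pairs of members with the same pattern, 6 kept their ratio within a 2-fold span over the high libraries, and the median span was 11.1-fold. Whether such pairs belong to the same gene cannot be read from the identifiers.

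The division of the second-ranked isoform was also found outside the members. Over the whole table, 8 isoforms had all 3 of these libraries at least 10 times above the highest of the other 6, with the latter counted as at least 1 FPKM. They included ranks 2 and 47. The other 6, of 4.60 to 12.8 FPKM on average, were too low to be eligible, and 4 of them were at 0 in all 6 other libraries. The third-ranked isoform's division, high in replicate 2 at 22 °C, replicates 1 and 3 at 27 °C and replicates 2 and 3 at 32 °C, held 4 isoforms by the same measure, which were the members of ranks 3, 8, 25 and 51. Apart from the division of rank 2, no pattern in use held more than 4 isoforms by this measure, and some others also held 4.

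Other members had opposite patterns. Exactly opposite high and low libraries were found in 101 pairs, among 105 of the members, of 19900 possible pairs. By the definition of high, every pattern has an opposite, so unrelated isoforms also form such pairs. Whether 101 exceeds the number that unrelated isoforms would give was not tested. Their sums varied less within temperatures than single members did. The smallest of the 3 SDs of log2(FPKM + 1) had a median of 0.56 for the sums and 1.96 for the members, and 6 of the 101 sums reached the value of the last member. The largest of the 3 SDs had a median of 1.43 for the sums and 3.42 for the members. In 37 pairs even the largest SD of the sum lay below the smallest SD of every member, and in 24 it was below 1. Opposite pairs are picked to be high in different libraries, and the members for a large smallest SD, so a steadier sum is in part set by the choice and is not a test. The pair of ranks 7 and 141 had one of the steadier sums. Rank 141 measured 0, 52.33 and 4.37 FPKM in the 22 °C libraries, 7.58, 86.67 and 10.75 in the 27 °C libraries and 74.71, 38.87 and 8.82 in the 32 °C libraries. Added to rank 7 it gave 101.72, 52.33 and 89.1 FPKM, then 100.47, 86.67 and 92.26 FPKM, then 74.71, 38.87 and 75.94 FPKM. The sum spanned 2.62-fold over the 9 libraries, and its largest SD was 0.54. The steadiest sum of all 101 pairs by that measure ran from 46.4 to 129 FPKM with a largest SD of 0.51. These pairs were picked after their values were seen, from all opposite pairs, and are a description.

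**Figure D3:**
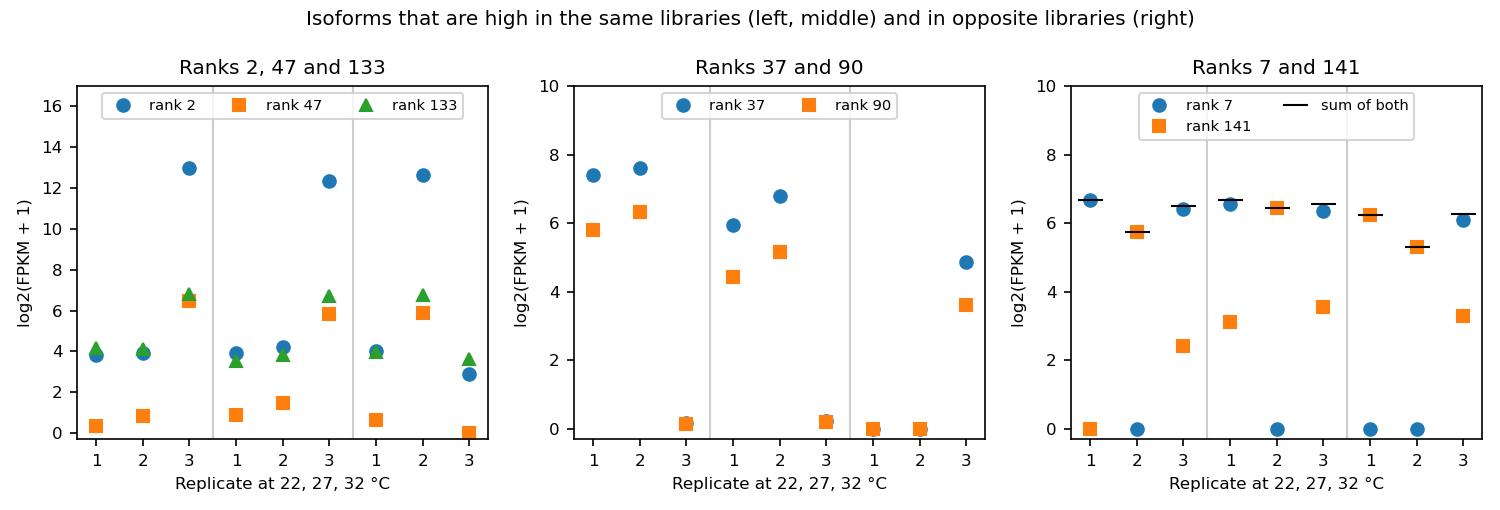
log2(FPKM + 1) by library, with replicates 1 to 3 of each temperature from left to right, for ranks 2, 47 and 133 (left), ranks 37 and 90 (middle), and ranks 7 and 141 with their sum as a black bar (right). The members on the left and in the middle move up and down in the same libraries, and those on the right in opposite libraries, while their sum stays between 38.87 and 101.72 FPKM.

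Together the 200 isoforms held between 0.392 and 1.21% of the summed FPKM of a library. The mean share was 0.668% ± 0.323 in the 22 °C libraries, 0.651% ± 0.138 in those of 27 °C and 0.805% ± 0.352 in those of 32 °C (SD, n = 3 per temperature), and the libraries of the 3 temperatures overlapped. The second-ranked isoform alone made up 38.8, 32.0 and 31.3% of the members' sum in its 3 high libraries and at most 0.153% in any other. Without it the shares were 0.535% ± 0.126, 0.564% ± 0.0165 and 0.678% ± 0.136 (SD, n = 3 each). The median member ranged from 10.2 FPKM in replicate 1 at 32 °C to 31.7 FPKM in replicate 2 at 32 °C.

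**Figure D4:**
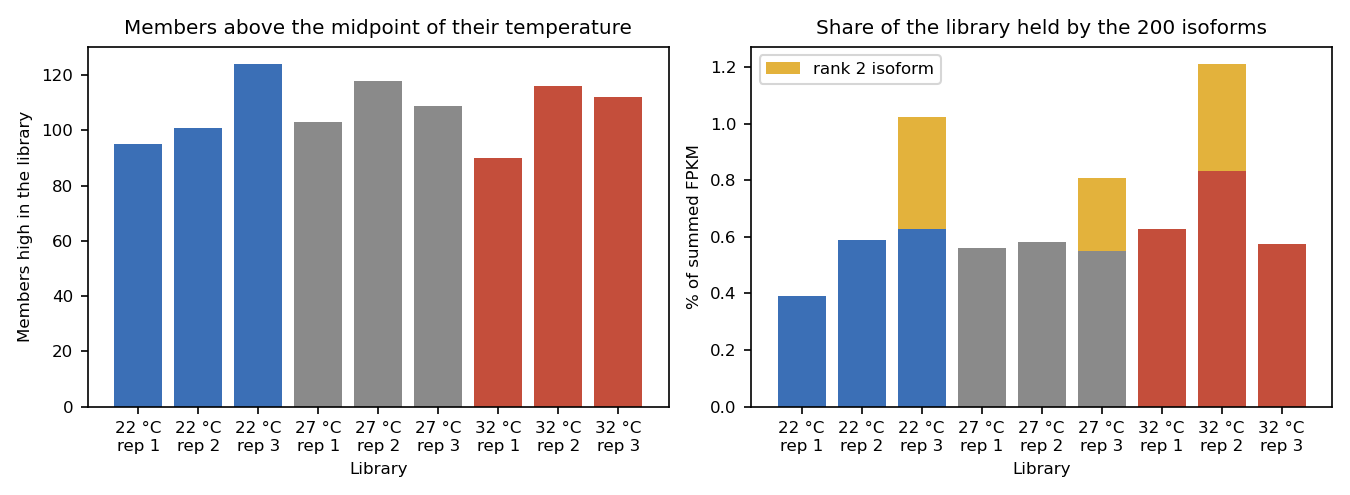
Left, the number of the 200 isoforms high in each library. Right, the percentage of summed FPKM the 200 isoforms held in each library, with the second-ranked isoform in yellow. The right-hand bars of replicate 3 at 22 °C, replicate 3 at 27 °C and replicate 2 at 32 °C carry a visible yellow part, and no temperature is high or low throughout.

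Temperature was compared over the same libraries. No member was called in any comparison by limma when p-values were adjusted by Benjamini-Hochberg over all 101114 isoforms that reached 1 FPKM in 3 or more libraries, with a threshold of 0.05. All 200 members were among those tested. For 32 against 22 °C, 0 of 200 members were called, where 1.70% of all isoforms tested were called. For 27 against 22 °C the members' count was 0 against 0.587% of the table, for 32 against 27 °C 0 against 0.120%, and in the F-test of any difference 0 against 1.12%. At an unadjusted p below 0.05 the same limma fit gave 4, 9, 8 and 5 members in these comparisons. That is 2, 4.5, 4 and 2.5% of the members, against 16.5, 15.3, 9.04 and 16.4% of the table. The rule picked isoforms with a large spread between replicates, and this spread is the error of the test, so nothing is read from these counts, which do not show that the members were steady across temperatures.

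The estimated changes were larger than those of the table, and so were their errors. The median absolute log2 change of the members was 1.42 for 32 against 22 °C, 1.07 for 27 against 22 °C and 1.15 for 32 against 27 °C. Over all isoforms tested it was 0.38, 0.37 and 0.30. The median standard error was 2.08 for the members and 0.35 for the table. The median change itself was -0.07, -0.14 and 0.20 for the members and 0.10, 0.09 and 0.01 for the table. Higher and lower estimates were about equally frequent. By the fitted change, 95 members were higher and 105 lower at 32 than at 22 °C, 93 higher and 107 lower at 27 than at 22 °C, and 109 higher and 91 lower at 32 than at 27 °C. These comparisons share libraries and are not independent of each other.

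Few members had groups that did not overlap. For 32 against 22 °C, 1 member had its 3 values at the warmer temperature all above and 1 all below those at the cooler temperature, against 23.1% of all isoforms tested in either direction. For 27 against 22 °C 5 were above and 4 below, against 23.4%, and for 32 against 27 °C 5 were above and 1 below, against 14.4%. Here too a wide spread within groups, which chose the members, makes overlap more likely.

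The member that did not overlap and was higher at 32 than at 22 °C was rank 192, which measured 1.44, 0.45 and 10.56 FPKM in the 22 °C libraries, 0, 2.33 and 21.84 in the 27 °C libraries and 39.24, 134.51 and 22.27 in the 32 °C libraries. Its log2 change of 3.87 with a standard error of 1.26 had the lowest adjusted p of any member in that comparison, 0.183 (limma, Benjamini-Hochberg). Rank 200 was the member that was lower, whose lowest value at 22 °C was 62.95 FPKM and whose highest at 32 °C was 62.71 FPKM. The lowest adjusted p of any member in the limma fit was 0.142, for rank 170 in 27 against 22 °C. That isoform measured 5.29, 0 and 0 FPKM in the 22 °C libraries, 150.52, 31.4 and 185.11 in the 27 °C libraries and 0, 34.59 and 0 in the 32 °C libraries.

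The members with the largest differences of the log2 means between 22 and 32 °C showed the same mixture of levels. isoform_46221, rank 172, measured 0, 0 and 4.19 FPKM in the 22 °C libraries, 187.19, 229.85 and 14.7 in the 27 °C libraries and 0, 347.87 and 422.98 in the 32 °C libraries. Its mean was 1.40 ± 2.42 FPKM at 22 °C and 257 ± 226 FPKM at 32 °C (SD, n = 3 each). The groups overlap through the 0 in replicate 1 at 32 °C, and the fitted log2 change from 22 to 32 °C was 4.93 (SE 2.29, limma adjusted p 0.333). isoform_37428, rank 100, measured 0, 114.23 and 0 FPKM in the 22 °C libraries, 1305.48, 86.11 and 537.81 in the 27 °C libraries and 3059.27, 938 and 0 in the 32 °C libraries. Its groups overlap as well, and the fitted log2 change was 4.87 (SE 3.13, limma adjusted p 0.486).

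In the other direction, isoform_45935, rank 188, measured 25.16, 103.55 and 142.4 FPKM in the 22 °C libraries, 59.03, 0 and 0 in the 27 °C libraries and 0, 26.45 and 0 in the 32 °C libraries. A single 32 °C library thus lay within the range at 22 °C. The fitted log2 change was -4.60 (SE 1.88, limma adjusted p 0.276). isoform_324453, rank 178, measured 73.86, 72.34 and 13.77 FPKM in the 22 °C libraries, 0, 49.34 and 42.36 in the 27 °C libraries and 0, 0 and 17.69 in the 32 °C libraries. The fitted log2 change was -4.03 (SE 1.74, limma adjusted p 0.302).

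Several members of high abundance also passed through very different levels. Like all members, they were not called by the test, whose error is the spread that chose them. Rank 122 measured 1.5, 1.34 and 97.98 FPKM in the 22 °C libraries, 167.38, 997.24 and 121.52 in the 27 °C libraries and 2.53, 1625.16 and 864.53 in the 32 °C libraries. Its 27 °C values all lay above those at 22 °C, by 5.04 on the log2 scale (SE 2.45, limma adjusted p 0.375). Rank 97 measured 0, 577.95 and 0 FPKM in the 22 °C libraries, 106.03, 421.28 and 1779.88 in the 27 °C libraries and 0, 0.04 and 473.29 in the 32 °C libraries. Rank 189, above 0 in every library, measured 73.34, 215.77 and 32.69 FPKM in the 22 °C libraries, 339.63, 61.02 and 244.3 in the 27 °C libraries and 1481.17, 748.45 and 17.55 in the 32 °C libraries. The lowest value of rank 189 over all 9 libraries was thus at 32 °C, beside its highest. Rank 115 was the least abundant member, with a mean of 20.1 FPKM. It measured 0, 0 and 6.73 FPKM in the 22 °C libraries, 106.31, 12.12 and 0 in the 27 °C libraries and 55.73, 0 and 0 in the 32 °C libraries.

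**Figure D5:**
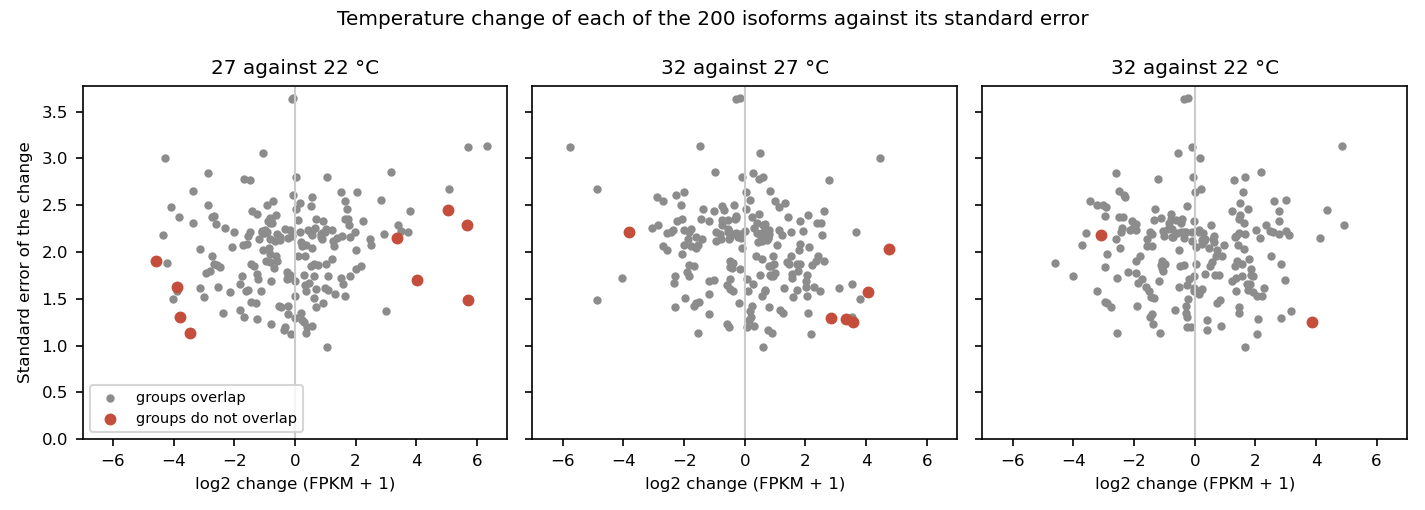
log2 change of each of the 200 isoforms (x axis, on the log2(FPKM + 1) scale) against the standard error of that change (y axis) for 27 against 22 °C, 32 against 27 °C and 32 against 22 °C, with 1 point per isoform. Red points are the 9, 6 and 2 members whose groups do not overlap. The points spread to both sides of 0 and none passed the test.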

How the data were processed

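Eyestalk RNA of 9 libraries was analysed from 1 table. Per the file headers, each library's deposited column holds FPKM. Bowtie2 and RSEM are named per the submitters' processing notes, and their settings, the transcript set, the genome build and any filter are not stated by any source used. Columns were matched to libraries by title, and 0 columns were left unused. FPKM depends on the library total, so a few abundant isoforms can shift the rest.

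Members were ranked on log2(FPKM + 1) as the opening describes. The members, lists and tests were chosen with earlier results of these data known. Temperatures were compared on log2(FPKM + 1) with limma 3.58.1 under R 4.3.3, two-sided, in a single fit of all 9 libraries with a trended variance, after a trial on simulated data. That scale understates changes of low isoforms. Isoforms given in detail were set by rule: ranks 1 to 5, the ranks around the limit, the highest and lowest mean, the most frequent pattern, and by identifier the 2 largest rises and 2 largest falls. Ranks 6, 7, 8, 25, 26, 37, 47, 51, 90, 97, 122, 133, 141, 170, 189 and 192 were added after their values were seen. The lists of eyestalk gene groups could not be filled, for lack of names, and none was tested. Alternatives changed the pseudocount, the filter, the scaling, the variance model, the pairing and the libraries.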

Additional observations from a re-analysis of the deposited data

How the results depend on the processing

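The counts of 0 members called by limma held in all 17 other settings for each of the 4 tests. The spread that chose the members is the error of the test in these settings too, so nothing is read from these counts. Some settings without a single library did not test every member. In the fit with a replicate block, the table itself gave 376, 91, 18 and 173 calls, against 1716, 594, 121 and 1132 without the block. These are for 32 against 22, 27 against 22, 32 against 27 °C and any temperature, in that order. Over the 8 settings that kept all libraries, the block included, table calls ran from 376 to 1781, 91 to 699, 18 to 126 and 173 to 1187, and without a single library from 264 to 1228, 74 to 851, 44 to 191 and 192 to 1031. Deviations from the temperature means correlated at -0.02 to 0.05 for equal replicate numbers and at -0.05 to 0.04 for unequal ones. With 3 libraries per temperature, these values cannot decide whether replicate numbers pair the libraries. The members' median change for 32 against 22 °C ran from -0.28 to 0.26 over 13 settings and for 27 against 22 °C from -0.32 to 0.14, so neither has a stable sign. For 32 against 27 °C it ran from 0.02 to 0.31.

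Which isoforms are members depends on the rule. A minimum mean of 10 FPKM kept 79 of the 200 and a minimum of 50 kept 56, since the pool then gains or loses isoforms. Leaving out a single library kept 119 to 147, with fewest without replicate 3 at 22 °C. The other settings kept at least 157. The patterns in use numbered 108 with a smaller pseudocount, 110 with rescaled libraries and 141 with a fixed split at 10 FPKM, against 109. That split sets no limit on how many libraries of a temperature are high. Read totals are unknown, so no interval from counts could be given for any value.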
